A study of Rattus norvegicus with 288 samples.

Results

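The secreted metalloproteases ADAMTS1, ADAMTS4, ADAMTS5 and ADAMTS9 were followed through bone marrow, heart and liver of rats given temsirolimus with sunitinib or sorafenib. The genes were chosen by symbol, each read from the probe set annotated to that symbol alone and, where a gene had several, from the one with the highest mean signal in the tissue. They are 4 of 14218 genes with a symbol of their own on the array. The mean signal thus chose the probe sets, and the levels given below are a description without a test. The changes with treatment were not part of the choice of probe set. The 4 genes themselves were chosen with earlier results of these data known, so their share of calls is no independent support.

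Gene expression was measured in male Sprague-Dawley rats of 7 to 8 weeks with a femoral vein cannula, with 1 array for each of 3 tissues of 96 rats. Every rat first received temsirolimus (0.3 mg/kg iv), an inhibitor of the mTOR kinase, or its vehicle (TEM vehicle). It then received sunitinib (5 mg/kg po) in water, sorafenib (25 mg/kg po) in a mixture of Pluronic F68, propylene glycol and polyethylene glycol (F68), or the water or F68 alone. Bone marrow, heart and liver were collected 1, 6 or 24 h later, which gave 8 treatments at 3 times with 4 rats in each group. Sunitinib and sorafenib inhibit the receptors for VEGF and PDGF, and sorafenib also inhibits RAF kinases. The rats were dosed once, marrow was flushed from a femur, and each sample mixed all cell types of its tissue.

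ADAMTS proteases are zinc-dependent enzymes that cells secrete into the extracellular matrix, where thrombospondin-type repeats help to place them. ADAMTS1, ADAMTS4, ADAMTS5 and ADAMTS9 all cut the large proteoglycans aggrecan and versican, ADAMTS5 and ADAMTS4 being the best known aggrecanases of cartilage and ADAMTS1 being prominent in endothelium, ovary and inflamed tissue. TIMP3 inhibits several of them in the tissue, and the receptor LRP1 clears ADAMTS4 and ADAMTS5 from it.

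On rat assembly GRCr8, *Adamts1* lies on chromosome 11 between 38418565 and 38427384 and its neighbour *Adamts5* on the same chromosome between 38486945 and 38533516. *Adamts4* lies on chromosome 13 between 86203011 and 86212500 and *Adamts9* on chromosome 4 between 126847726 and 127019924. The 250 bases before the annotated start, taken from RefSeq on GRCr8, matched 3 of the 4 genes and are printed because these 3 genes changed in the comparisons below. They are at chr11:38427385-38427634 on the minus strand for *Adamts1*, chr13:86202761-86203010 on the plus strand for *Adamts4* and chr4:127019877-127020126 on the minus strand for *Adamts9*, whose annotated gene reaches into the last bases of its window. Each is written 5′ to 3′ along the gene, and capitals mark the GC box (GGGCGG on either strand).

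Adamts1: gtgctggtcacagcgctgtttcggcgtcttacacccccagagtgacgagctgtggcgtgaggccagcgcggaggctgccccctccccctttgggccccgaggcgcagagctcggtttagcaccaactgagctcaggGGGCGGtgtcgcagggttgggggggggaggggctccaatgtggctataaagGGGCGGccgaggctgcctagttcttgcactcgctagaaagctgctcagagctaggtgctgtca
Adamts4: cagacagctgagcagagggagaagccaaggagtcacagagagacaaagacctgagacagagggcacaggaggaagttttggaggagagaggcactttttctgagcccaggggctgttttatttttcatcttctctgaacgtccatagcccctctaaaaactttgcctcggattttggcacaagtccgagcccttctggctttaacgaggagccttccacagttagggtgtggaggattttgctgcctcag
Adamts9: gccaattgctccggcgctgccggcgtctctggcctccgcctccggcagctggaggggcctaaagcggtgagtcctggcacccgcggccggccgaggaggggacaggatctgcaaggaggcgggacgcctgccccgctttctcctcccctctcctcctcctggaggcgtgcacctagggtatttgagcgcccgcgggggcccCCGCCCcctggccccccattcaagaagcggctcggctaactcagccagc

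The *Adamts1* window held 2 GC boxes, which began 114 and 63 bases before the start. The *Adamts9* window held 1 on the opposite strand, beginning 49 bases before the start used for its window. By the coordinates above that box reaches into the annotated *Adamts9* gene. Of all 33469 promoter windows of this length, 30.5% held a GC box. None of the 3 windows held an AP-1 element (TGACTCA, in 4.05% of all windows), a cyclic AMP response element (TGACGTCA, 1.59%), an E-box (CACGTG, 5.59%), an ETS element (CCGGAAG, 7.27%), an EGR element (GCGTGGG, 3.68%) or a CArG box (1.5%), searched on both strands.

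The arrays of each tissue carried the marker genes of that tissue. Over 96 arrays the mean log2 signal of 5 cardiomyocyte markers had a median of 14.5 in heart against 4.76 in marrow and 5.45 in liver, and that of 9 hepatocyte markers a median of 14.3 in liver against 5.21 in marrow. In heart the hepatocyte markers ran from 5.78 to 13.9, with 28 of 96 hearts above 7 and 14 above 9, so some hearts carried liver signal. All 14 were hearts of rats given temsirolimus. The 8 at 6 h and the 4 at 24 h were all from the lower rat numbers of their groups, and the 2 at 1 h from the higher. At 6 h the hearts of the higher rat numbers given temsirolimus reached at most 6.75. The liver signal thus went with the array set described below as well as with temsirolimus. The marrow array of rat 45 (temsirolimus with F68, 6 h) and the liver array of rat 48 (temsirolimus with F68, 24 h) were named by the study as possible outliers. The liver of rat 78 (TEM vehicle with sunitinib, 24 h) and the hearts of rats 68, 46 and 42 also stood apart. No fixed rule is given for adding these to those named by the study, and other hearts above 9 were kept. Calls that passed only without the 6 arrays are therefore descriptions.

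The levels of the 4 genes differed between tissues (the plot of signal by tissue). *Adamts1* had a mean log2 signal of 8.75 ± 0.38 (SD, n = 96) in heart, 8.30 ± 0.38 in liver and 6.04 ± 0.33 in marrow. In the 24 rats given both vehicles its signal ran from 8.22 to 9.83 in heart, from 7.93 to 8.63 in liver and from 5.75 to 6.37 in marrow, so heart and liver overlapped and marrow lay below both. *Adamts4* was highest in liver at 7.32 ± 0.17, and its vehicle rats ran there from 7.13 to 7.47, above the heart (6.11 to 6.80) and the marrow (5.99 to 6.49), which overlapped each other.

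*Adamts5* was measured by a pair of probe sets and had its highest signal in heart. The probe set 1394483_at had means of 8.94 in heart, 7.09 in marrow and 4.76 in liver, and the probe set 1384724_at had means of 8.14, 6.86 and 5.22, so both gave the order heart, marrow, liver. In the vehicle rats the signals did not overlap between heart (8.39 to 9.81), marrow (6.66 to 8.03) and liver (4.90 to 5.61, the last from 1384724_at). *Adamts9* had means of 8.50 ± 0.38 in heart, 7.71 ± 0.31 in liver and 7.23 ± 0.36 in marrow, and neighbours in this order overlapped among the vehicle rats. The sources do not say whether the 3 tissues were normalised together, and signals of different probe sets were not set against each other.

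**Figure D1:**
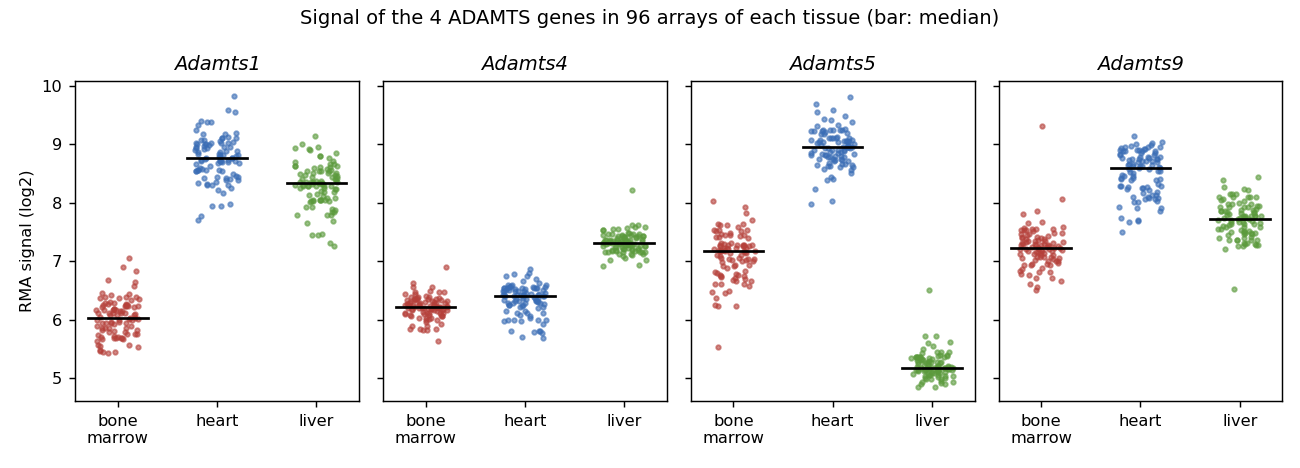
RMA signal (log2) of the 4 genes in each of the 96 arrays of bone marrow, heart and liver, with a bar at the median. Adamts1 and Adamts5 were lowest in marrow and in liver respectively, and Adamts4 was highest in liver.

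The pair of probe sets of *Adamts5* rose and fell together over the 96 arrays of marrow (Pearson r = 0.872) and less so in heart (r = 0.659) and liver (r = 0.403). Those of *Adamts9* did not, with r = 0.148 in marrow, -0.12 in heart and -0.16 in liver. The *Adamts9* probe set used, 1376481_at, was the brighter one in every tissue, and the other, 1394518_at, had means between 6.31 and 6.57. The arrays of a tissue share treatments and normalisation, so these correlations are descriptions.

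Each drug alone was compared with its own vehicle in each tissue at each time, using limma with Benjamini-Hochberg adjustment over all 14218 genes and a threshold of 0.05. Of 108 values (4 genes in 27 comparisons) 8 passed, 7 lower and 1 higher, against 1.08% of all values tested in these comparisons. In the comparisons of each drug on top of the other agent, which used other rats than that drug alone, 7 of 108 values passed, 6 lower and 1 higher, against 1.34% of all values. The changes that passed lay in a different gene in each tissue: *Adamts5* in marrow, *Adamts9* in heart and *Adamts1* in liver accounted for 13 of the 15. The remaining values were *Adamts4* in heart and *Adamts1* in marrow. Sorafenib and temsirolimus alone share their TEM vehicle and F68 rats, as sunitinib and temsirolimus share the water rats. The rats given temsirolimus with water or F68 are the treated side of temsirolimus alone and the controls of the oral drugs on top. The rats given an oral drug alone are likewise the controls of temsirolimus on top. The values that passed are therefore not all independent of each other.

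**Figure D2:**
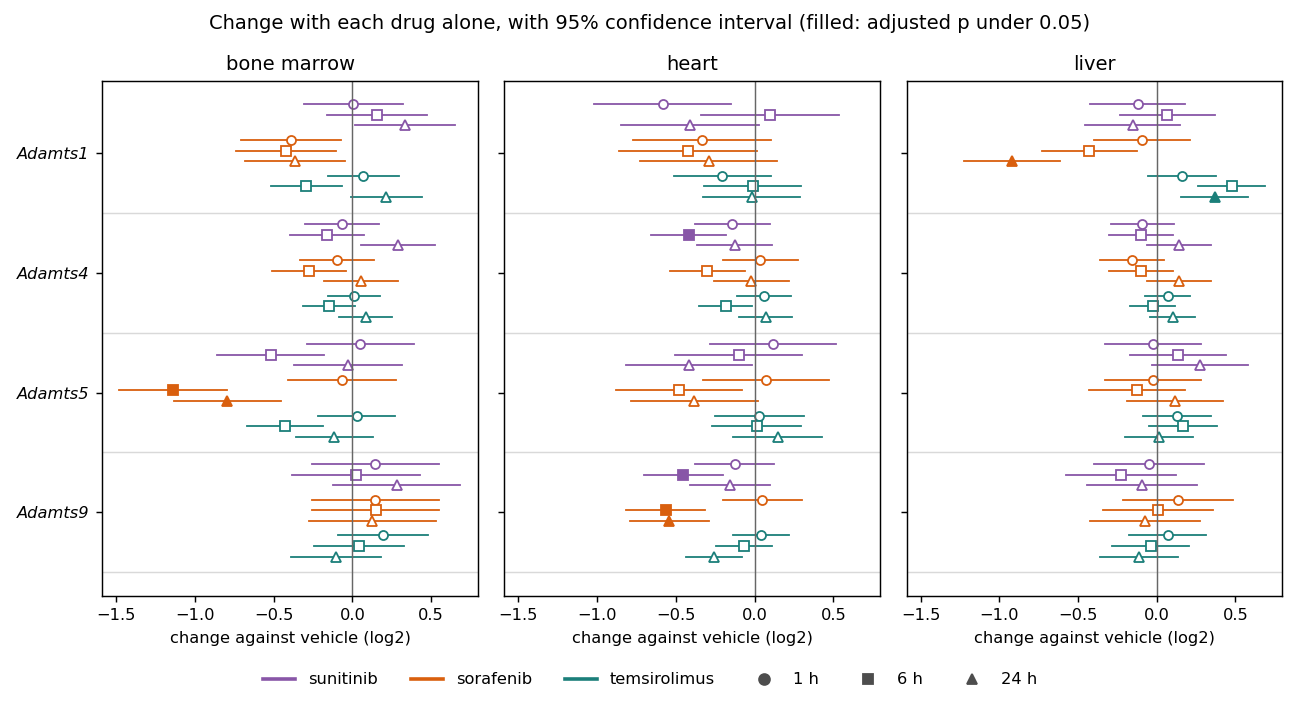
Change in log2 signal with each drug alone against its vehicle (horizontal axis) for the 4 genes in each tissue, with 95% confidence intervals from limma. Colours are drugs, symbols are times, and filled symbols passed the adjusted p of 0.05, 8 in all, of which Adamts5 in marrow at 6 h after sorafenib was the lowest at -1.14.

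In marrow, *Adamts5* fell after sorafenib. At 6 h the log2 signal in the 4 rats given TEM vehicle and F68 was 7.17, 7.28, 7.28 and 7.64. In the 4 rats given TEM vehicle and sorafenib it was 5.53, 6.24, 6.47 and 6.57. Every sorafenib rat lay below every vehicle rat, and the signal was 45.4% of the vehicle level (change of -1.14 ± 0.17 SE, limma adjusted p = 6.83e-05). Only 3 of 14218 genes (0.0211%) passed in this comparison. The arrays fall into 2 sets, the first with the 2 lower and the second with the 2 higher rat numbers of each group, and the change was -1.34 within the first set and -0.94 within the second, while the other *Adamts5* probe set gave -1.13 (adjusted p = 0.000239). Leaving out any of the 8 rats kept the call, with changes from -1.23 to -0.97, while a fit of these groups alone gave an adjusted p of 0.105.

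At 24 h the *Adamts5* signal was 7.31, 7.41, 7.46 and 8.03 with F68 and 6.61, 6.69, 6.78 and 6.94 with sorafenib. The groups again did not overlap, and the change was -0.79 ± 0.17 (57.7% of the vehicle level, limma adjusted p = 0.00232), where 3.70% of all genes passed. It was -0.73 within the first array set and -0.86 within the second. In the second set at 24 h the sorafenib rats 95 and 96 had another number in their array names than the F68 rats 23 and 24, in all 3 tissues, so within that set the array number and sorafenib alone cannot be told apart. In the first set both groups carried the same number. The other probe set gave -1.01 (adjusted p = 0.000145). At 1 h the groups overlapped, with 7.05 to 7.47 under F68 and 6.71 to 7.42 under sorafenib, and the change was -0.07 ± 0.17. The effect of sorafenib on *Adamts5* differed between the 3 times (moderated F = 10.1, limma adjusted p = 0.0395), where 0.380% of genes passed. That call was lost when any of 16 of the 24 rats was left out (rats 13 to 21, 86, 87, 89, 91, 92, 94 and 96, F from 7.90 to 10.3, adjusted p up to 0.109). It was also lost with the values quantile normalised anew (adjusted p = 0.137) or without the array-set terms of the fit (0.213). With the other probe set it held (F = 16.7, adjusted p = 0.00233).

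With temsirolimus on board, *Adamts5* in marrow was again lower 24 h after sorafenib. The signals were 7.19, 7.26, 7.44 and 7.61 with temsirolimus and F68 and 6.25, 6.67, 6.72 and 6.82 with temsirolimus and sorafenib, without overlap. The change was -0.76 ± 0.17 (59.05% of the control level, limma adjusted p = 0.00887), where 1.12% of genes passed. It lost its call without rat 42 (-0.65, adjusted p = 0.0816), rat 65 (-0.66, 0.0714) or rat 71 (-0.77, 0.0530). The call was also lost without the array-set terms of the fit (adjusted p = 0.0639). At 6 h the same comparison gave -0.31 ± 0.17 (adjusted p = 0.174) with the array of rat 45, whose *Adamts5* signal of 6.24 was the lowest of its control group, the others being 7.04, 7.10 and 7.27. Without that array it was -0.61 ± 0.16 (adjusted p = 0.768), and the other *Adamts5* probe set gave -0.65 ± 0.18 with it (adjusted p = 0.0199). The test of whether temsirolimus altered the effect of sorafenib at 6 h gave a difference of 0.83 (95% confidence interval 0.35 to 1.32, adjusted p = 0.249), and 0.53 ± 0.22 without that array.

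**Figure D3:**
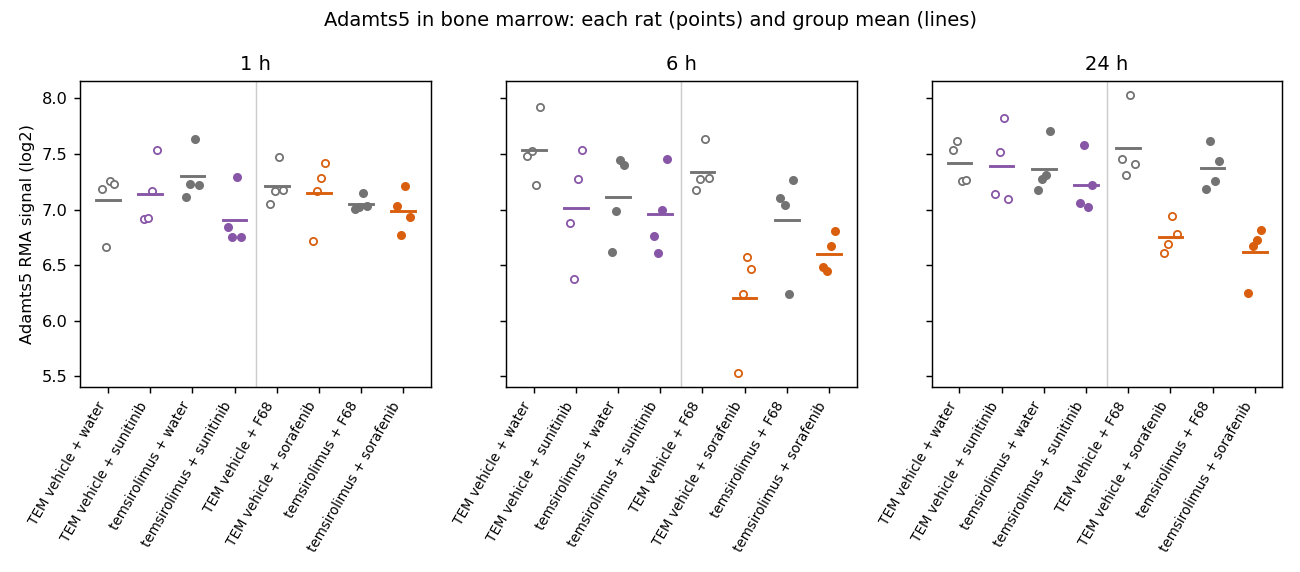
Adamts5 signal (log2) in bone marrow of each rat (points) and the group means (lines) for the 8 treatments at 1, 6 and 24 h, open points for TEM vehicle and filled points for temsirolimus. The sorafenib groups lie below their F68 groups at 6 and 24 h, save for the temsirolimus and F68 point at 6.24 (rat 45, 6 h), and overlap them at 1 h.

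Sunitinib and temsirolimus gave smaller values for *Adamts5* in marrow at 6 h, -0.52 ± 0.17 (adjusted p = 0.740) and -0.43 ± 0.12 (adjusted p = 0.157). The value for temsirolimus was -0.28 ± 0.11 without the array of rat 45. At 6 h after sorafenib, where 3 genes passed in all, none of the measured members of the 12 marker lists passed. The median change of 7 markers of endothelial cells was -0.28, the lowest median of that list over the 27 comparisons of a drug alone, and their mean level ran from 7.84 to 8.41 with sorafenib against 8.26 to 8.39 with F68. The fibroblasts list ran from 9.18 to 9.52 against 9.12 to 9.54. At 24 h 1 of 4 markers of erythroid cells rose and no other marker passed. After temsirolimus and sorafenib at 24 h the fibroblasts list ran from 8.26 to 9.10 against 8.75 to 9.99 with temsirolimus and F68, with none of its 6 markers passing. In tissue RNA, fewer cells of a type and less RNA in each cell cannot be told apart, and the part of cell numbers in these changes was not tested.

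*Adamts1*, a versican-cutting protease of endothelium and inflamed tissue, was low in marrow and passed in 1 comparison. At 24 h its signal was 6.12, 6.35, 6.39 and 7.05 with temsirolimus and F68 and 5.67, 5.75, 5.95 and 6.12 with temsirolimus and sorafenib, the ranges just touching. The change was -0.61 ± 0.16 (limma adjusted p = 0.0373), where 1.12% of genes passed. The highest control value came from rat 42, and without that rat the change was -0.44 ± 0.17 (adjusted p = 0.291). The call was also lost without rat 47, 66, 71 or 72 (changes from -0.60 to -0.57, adjusted p from 0.0826 to 0.150). Leaving out the array-set terms ended it too (adjusted p = 0.130), as did new quantile normalisation (0.0507). Beside it 2 of 7 markers of endothelial cells fell (median change of the list -0.29), and the list's mean level ran from 7.81 to 8.22 with sorafenib against 8.18 to 8.24 without. With sorafenib alone the values for *Adamts1* were -0.39, -0.42 and -0.36 at 1, 6 and 24 h, each ± 0.16, and none passed. *Adamts4* and *Adamts9* passed in no comparison of a drug in marrow. *Adamts9* had its highest marrow signal, 9.31, in the array of rat 45, against a mean of 7.23 over all 96 arrays. Its value for temsirolimus in rats also given an oral drug, -0.40 ± 0.14 at 24 h (adjusted p = 0.227), passed without the array of rat 45 and the liver of rat 48 (-0.40 ± 0.10, adjusted p = 0.0107). In that comparison 3 of 6 fibroblasts markers fell, with a list median of -0.61. They were the only fibroblasts values that passed on top of the other agent (1.85% of 162, against 1.34% of all values). The share of all genes in that comparison alone is not given, and a link to *Adamts9* was not tested. At 6 h sorafenib after temsirolimus gave -0.45 ± 0.20 for *Adamts9* with the array of rat 45 and 0.09 ± 0.15 without it.

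In heart, *Adamts9*, a widely expressed protease of the vessel wall and developing heart, was lower 6 h after either oral drug. With TEM vehicle and F68 the signals at 6 h were 8.40, 8.52, 8.88 and 8.89, and with TEM vehicle and sorafenib they were 7.90, 8.02, 8.22 and 8.29. The groups did not overlap, and the change was -0.57 ± 0.13 (67.6% of the vehicle level, limma adjusted p = 0.00412), where 2.98% of all genes passed. Leaving out any of the 8 rats kept this call. At 24 h the signals were 8.17, 8.46, 8.66 and 8.75 against 7.69, 8.03, 8.07 and 8.07, again apart, with a change of -0.54 ± 0.13 (adjusted p = 0.0231) where 0.352% of genes passed. Within the first array set, where both groups had the same array number, it was -0.43, and within the second it was -0.65. The 24 h call was lost without rat 23, 24, 90 or 95, with changes from -0.56 to -0.45 and adjusted p from 0.0824 to 0.284, and in the fit of these groups alone (0.0678). At 1 h the change was 0.05 ± 0.13. The effect differed between the times (F = 7.58, limma adjusted p = 0.0312), where 5.65% of genes passed, and leaving out rat 13, 14, 19, 85, 86 or 87 ended that call (F from 5.73 to 6.86, adjusted p from 0.0512 to 0.0932).

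Sorafenib after temsirolimus gave like values for *Adamts9* in heart. At 6 h the change was -0.52 ± 0.13 (limma adjusted p = 0.0110, 2.19% of genes passing), from 8.26, 8.50, 8.65 and 8.74 with F68 to 7.86, 8.01, 8.06 and 8.14 with sorafenib. Without rat 70 it was -0.44 (adjusted p = 0.117), and without the 6 arrays that stood apart, among them the heart of rat 46 from this F68 group, it was -0.65 ± 0.13 (adjusted p = 0.00124). At 24 h it was -0.65 ± 0.13 (63.6% of the control level, adjusted p = 0.000945, 0.858% passing), from 8.28, 8.31, 8.43 and 8.64 to 7.67, 7.71, 7.74 and 7.93. No rat's omission ended the 24 h call, and neither pair of groups overlapped.

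Sunitinib alone changed *Adamts9* in heart by -0.45 ± 0.13 at 6 h (limma adjusted p = 0.0381), where 2.45% of all genes passed. The signals were 8.57, 8.61, 8.78 and 8.78 with water and 7.50, 8.40, 8.40 and 8.63 with sunitinib, so the groups overlapped and rat 76 lay far below the rest. Without rat 76 the change was -0.23 ± 0.12 (adjusted p = 0.357). The call was also lost without rat 3, 4, 9, 10 or 81 (changes from -0.48 to -0.45, adjusted p from 0.0525 to 0.145). Leaving out the array-set terms ended it as well (adjusted p = 0.0580). After temsirolimus the sunitinib rats had 7.90, 8.10, 8.10 and 8.24 against 8.62, 8.67, 8.70 and 8.76 with temsirolimus and water. These did not overlap, the change was -0.60 ± 0.13 (65.9% of the control level, limma adjusted p = 0.00848) and 0.197% of genes passed. That call was lost without rat 27, 28, 52 or 58 (changes from -0.58 to -0.55, adjusted p from 0.0560 to 0.0842). At 24 h sunitinib gave -0.16 ± 0.13 alone and -0.06 ± 0.13 after temsirolimus.

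**Figure D4:**
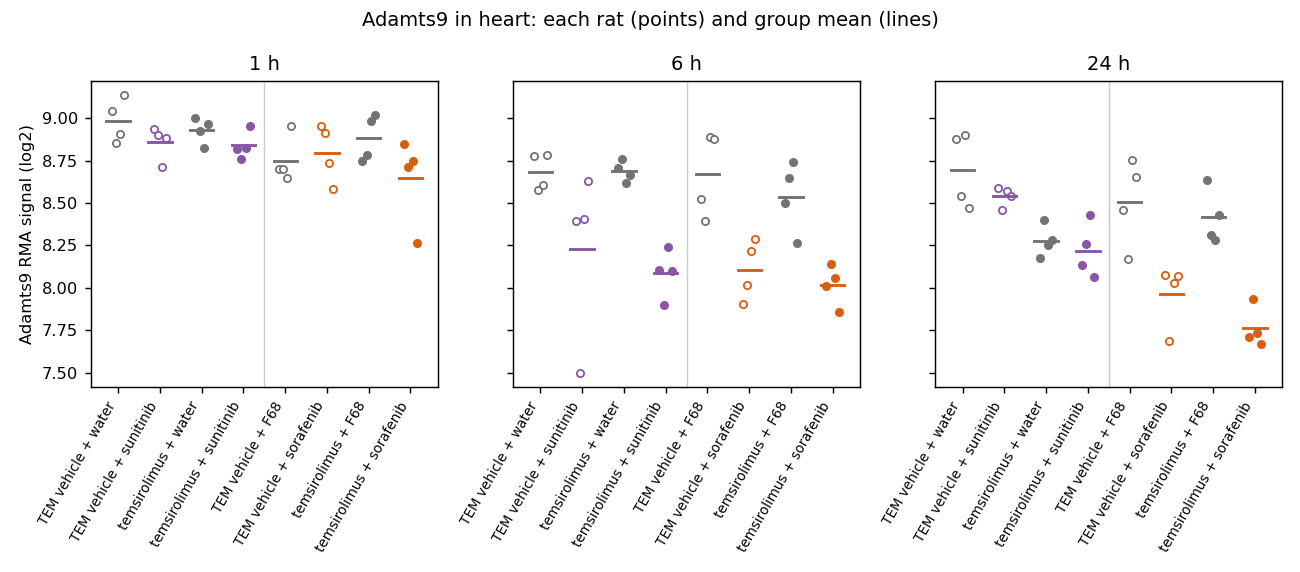
Adamts9 signal (log2) in the heart of each rat (points) and the group means (lines) for the 8 treatments at 1, 6 and 24 h, open points for TEM vehicle and filled points for temsirolimus. Sorafenib groups lie below F68 groups at 6 and 24 h, and the point at 7.50 is rat 76.

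All of these *Adamts9* values come from the brighter probe set. The other probe set, 1394518_at, gave 0.02 and -0.03 for sorafenib alone at 6 and 24 h in heart, 0.07 and 0.10 for sorafenib after temsirolimus, and -0.24 and 0.05 for sunitinib without and with temsirolimus at 6 h, with adjusted p of at least 0.203. The fall was thus seen with 1 of the 2 probe sets, and which transcript each one reports was not tested.

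Among the marker lists in heart, macrophages fell beside *Adamts9* after sorafenib. At 24 h 4 of 6 macrophage markers fell with sorafenib alone (median change -0.97), and the list's mean level ran from 7.72 to 8.14 against 8.62 to 9.32 with F68. After temsirolimus 5 of 6 fell, from 8.63 to 9.26 down to 7.36 to 8.02. At 6 h 1 of 6 fell with sorafenib alone and 3 of 6 after temsirolimus. No marker of endothelial cells passed at 6 or 24 h with sorafenib alone, and their level at 6 h ran from 10.2 to 10.4 in both groups. With sunitinib alone at 6 h no marker of any list passed. The level of hepatocytes markers in the 6 h hearts of TEM vehicle rats reached 7.02 with sorafenib and 6.49 with F68. In the temsirolimus rats it reached 10.3 with sorafenib and 10.6 with F68. At 6 h 8 hearts of temsirolimus rats lay above 9, all of the first array set. With that level as a covariate the calls of *Adamts9* were all kept. The part of the macrophage signal in the fall was not tested.

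*Adamts4*, an aggrecanase, had a signal of 6.32, 6.33, 6.35 and 6.41 in hearts given TEM vehicle and water at 6 h and 5.81, 5.81, 6.00 and 6.12 with sunitinib. The groups did not overlap, and the change was -0.42 ± 0.12 (74.8% of the vehicle level, limma adjusted p = 0.0437). The call was lost without rat 3, 4, 9, 10, 76 or 81 (changes from -0.43 to -0.37, adjusted p from 0.0558 to 0.169), with the values quantile normalised anew (0.111) and without the array-set terms (0.0548). After temsirolimus the sunitinib value was 0.17 ± 0.12. The difference between these effects was 0.59 (95% confidence interval 0.25 to 0.93), which did not pass (adjusted p = 0.180). *Adamts1* and *Adamts5* passed in no comparison of a drug in heart. After sorafenib alone *Adamts1* gave -0.33, -0.42 and -0.29 in heart at 1, 6 and 24 h. Its 6 h values in marrow and liver were -0.42 and -0.43. *Adamts5* gave -0.48 ± 0.20 in heart with sorafenib at 6 h (95% confidence interval -0.88 to -0.08, adjusted p = 0.180). With its other probe set the 6 h change was -1.13 in marrow and the marrow minus heart difference -1.06. The heart value of that probe set was thus small.

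In liver, *Adamts1* fell after sorafenib and rose after temsirolimus. At 24 h the signals were 8.15, 8.36, 8.40 and 8.47 with TEM vehicle and F68 and 7.26, 7.30, 7.44 and 7.69 with TEM vehicle and sorafenib. There was no overlap, and the change was -0.92 ± 0.15 (52.9% of the vehicle level, limma adjusted p = 0.000417). Only 8 of 14218 genes (0.0563%) passed in this comparison. The change was -0.96 within the first array set, where both groups had the same array number, and -0.88 within the second. The call was kept without any of the 8 rats (changes from -1.01 to -0.86) and was lost in the fit of these groups alone (adjusted p = 0.152). At 6 h sorafenib alone gave -0.43 ± 0.15, from 8.24, 8.33, 8.41 and 8.55 to 7.84, 7.93, 8.02 and 8.03, which did not overlap but did not pass.

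After temsirolimus the fall of *Adamts1* in liver was present at 6 h. The signals were 8.69, 8.80, 8.95 and 9.14 with temsirolimus and F68 and 7.79, 7.79, 7.89 and 8.05 with temsirolimus and sorafenib, far apart. The change was -1.01 ± 0.15 (49.5% of the control level, limma adjusted p = 3.01e-05), where 0.148% of genes passed, and it kept its call without any of the 8 rats. At 24 h the change was -0.65 ± 0.15 and lay at the threshold (adjusted p = 0.0504). The test of whether temsirolimus altered the sorafenib effect at 6 h gave -0.59 (95% confidence interval -1.02 to -0.16), which did not pass (adjusted p near 1).

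Temsirolimus alone raised *Adamts1* in liver at 24 h by 0.37 ± 0.11 (129% of the vehicle level, limma adjusted p = 0.0392), averaged over water and F68, where 3.09% of all genes passed. The 8 temsirolimus rats ran from 8.50 to 9.0 with a median of 8.64, and the 8 vehicle rats from 8.07 to 8.47 with a median of 8.34, without overlap. The rise was 0.52 in the water rats and 0.22 in the F68 rats, and neither passed by itself (adjusted p = 0.177 and 0.597). Leaving out any of 10 of the 16 rats ended the call (rats 5, 11, 12, 17, 23, 24, 29, 30, 42 and 48, changes from 0.33 to 0.38, adjusted p from 0.0501 to 0.111). At 6 h the value was 0.48 ± 0.11, which did not pass with all arrays and passed without the 6 arrays that stood apart (adjusted p = 0.0450), none of which was a 6 h liver. In the rats also given sunitinib or sorafenib, temsirolimus gave 0.42 ± 0.11 at 24 h (adjusted p = 0.0118, 7.86% of genes passing). There the groups overlapped, from 7.46 to 8.76 against 7.26 to 8.46, and without the liver of rat 78, at 7.46, the change was 0.30 ± 0.10 (adjusted p = 0.0929).

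**Figure D5:**
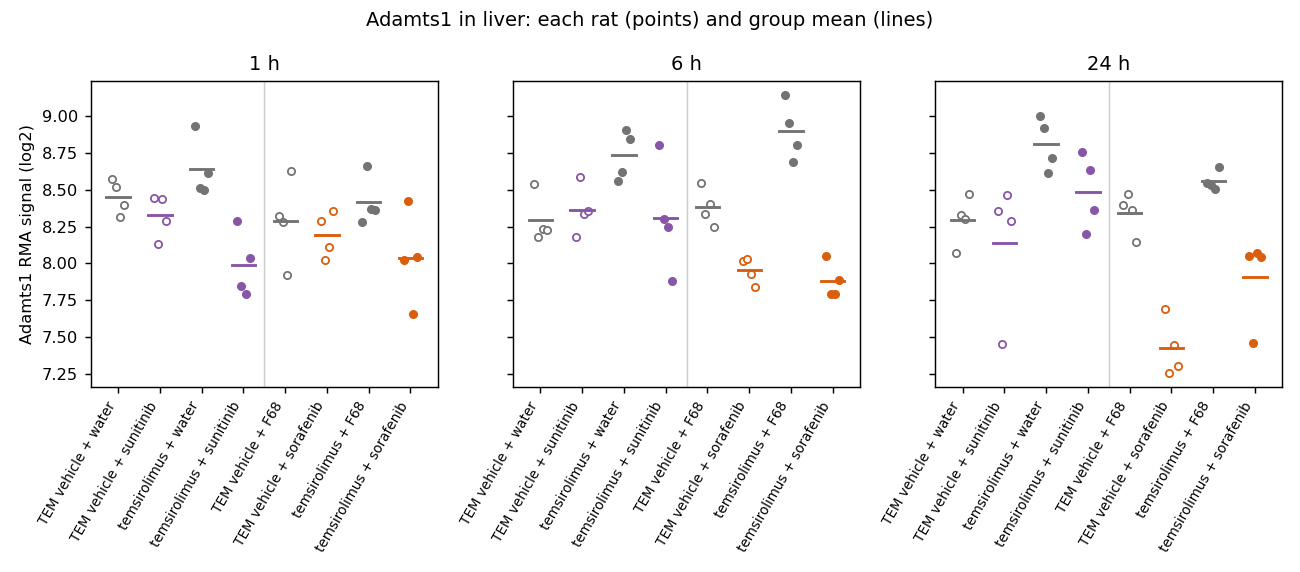
Adamts1 signal (log2) in the liver of each rat (points) and the group means (lines) for the 8 treatments at 1, 6 and 24 h, open points for TEM vehicle and filled points for temsirolimus. Sorafenib groups lie below F68 groups at 6 and 24 h, and the low point of the sunitinib group at 24 h is rat 78 at 7.46.

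Beside the sorafenib values in liver no marker of the 12 lists passed, neither with sorafenib alone at 24 h nor after temsirolimus at 6 h. The median change of the 6 macrophages markers was -0.28 and -0.46 in these comparisons, and their mean level ran from 10.1 to 10.6 with sorafenib against 10.4 to 10.7 with F68 at 24 h. The endothelial cells list ran from 7.74 to 7.97 against 7.79 to 7.98. With temsirolimus alone at 24 h 1 of 9 markers of hepatocytes fell. *Adamts4*, *Adamts5* and *Adamts9* passed in no comparison of a drug in liver, their values with a drug alone lying between -0.23 and 0.27. The value of 0.27 was *Adamts5* 24 h after sunitinib, a group in which rat 78 had 6.51 against a mean of 5.22 over all livers.

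The effects were then compared with each other. None of 72 limma tests of whether temsirolimus altered an oral drug's effect passed (lowest adjusted p = 0.180, 9 with an unadjusted p under 0.05), and 0.000781% of all such tests did. None of 36 tests of F68 against water passed (lowest 0.243, 0 under an unadjusted 0.05, with 0.0438% of all tests passing). None of 36 tests of the sorafenib effect against the sunitinib effect passed (lowest 0.301, 7 under an unadjusted 0.05, with 0.00938% of all tests passing). The doses of these drugs differed. For *Adamts5* in marrow at 24 h sorafenib gave -0.79 and sunitinib -0.03, a difference of -0.77 (95% confidence interval -1.25 to -0.28). For *Adamts1* in liver at 24 h the difference was -0.77 ± 0.22 (adjusted p = 0.462), and without the 6 arrays that stood apart it was -1.004 ± 0.20 (adjusted p = 0.0351). The drug effect differed between times for 2 of 36 gene and drug pairs, the *Adamts5* and *Adamts9* results above, against 0.826% of all tests.

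Time after dosing in the 8 vehicle rats of each time passed in none of 36 limma tests of the 4 genes (10 with an unadjusted p under 0.05), where 1.27% of all tests passed. The nearest was *Adamts1* in heart, with a change of -0.57 ± 0.15 from 1 to 24 h (adjusted p = 0.0522). Its signals at 1 h were 8.72, 9.38, 9.55 and 9.83 with water and 8.67, 8.82, 9.03 and 9.17 with F68. At 24 h they were 8.22, 8.45, 8.63 and 8.95 with water and 8.40, 8.43, 8.70 and 8.80 with F68. *Adamts9* in liver gave -0.40 ± 0.12 from 1 to 6 h (adjusted p = 0.0561). With the values quantile normalised anew both passed (adjusted p = 0.0319 and 0.0263), and so they did without the 6 arrays that stood apart (0.0121 and 0.0206). The *Adamts9* value also passed without the marrow array of rat 45 and the liver array of rat 48 (0.0478).

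Every rat gave all 3 tissues, so differences between tissues were tested within the rat, each gene read from the probe set with the highest mean over all arrays. Of 108 differences 2 passed, against 0.262% over all genes. At 6 h after sorafenib *Adamts5* gave -1.14 in marrow and -0.06 in liver, a difference of -1.08 ± 0.20 (limma adjusted p = 0.00358, 0.113% of genes passing). Without rat 87 it was -0.93 ± 0.22 (adjusted p = 0.0549). Against heart the difference was -0.66 ± 0.27 with this probe set (adjusted p = 0.401), and with the other probe set the difference was -1.06 ± 0.20 (adjusted p = 0.00109). At 6 h after temsirolimus *Adamts1* gave -0.29 in marrow and 0.48 in liver, a difference of -0.77 ± 0.16 (adjusted p = 0.0392, 0.0281% passing). That call was lost without any of 13 of the 16 rats (rats 3, 4, 9, 10, 15, 16, 21, 22, 27, 28, 33, 34 and 45, differences from -0.81 to -0.70, adjusted p from 0.0549 to 0.324). It was also lost without the array-set terms (adjusted p = 0.185). The falls of *Adamts9* in heart and of *Adamts1* in liver after sorafenib were not shown to differ from the other tissues in this test. For *Adamts9* the marrow minus heart difference was 0.71 ± 0.23 at 6 h and 0.67 ± 0.23 at 24 h (adjusted p = 0.195 and 0.169), and it passed at both times without the marrow array of rat 45 and the liver array of rat 48 (adjusted p = 0.0347 and 0.0311).

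Of 15 further family members 8 were measured by a probe set of their own, and 1 of their 216 values with a drug alone passed (0.463%), against 1.08% of all values. On top of the other agent 3 of 216 passed, 1 higher and 2 lower (1.39%, against 1.34% of all values). The one with a drug alone was *Adamts15* in liver 24 h after sunitinib, 0.50 ± 0.17 (adjusted p = 0.0463), where 9.99% of all genes passed, and without rat 78 it was 0.02. Leaving out rat 5, 6, 11 or 12 also ended that call. Among 4 ADAMTS-like proteins, which lack the protease domain, *Adamtsl4* rose in liver 24 h after temsirolimus (0.48 ± 0.08, adjusted p = 9.65e-05). The highest and lowest values with a drug alone over the 8 family members were 0.50 and -0.43, the latter for *Adamts8* in heart.

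Genes that act on these proteases or are cut by them were counted from lists. Of all values with a drug alone 1.08% passed, and a share near that says nothing particular about a list. Of these calls 1420 of 4159 lay in liver 24 h after sunitinib, where every named gene lost its call without rat 78. Of 162 values of 6 inhibitors and clearance genes 2 passed with a drug alone (1.23%), both *Timp4*, a metalloprotease inhibitor abundant in heart, which rose there 6 h after sunitinib (0.74 ± 0.21, adjusted p = 0.0387) and sorafenib (0.72 ± 0.21, adjusted p = 0.0368). The call with sunitinib was lost without any of 7 of the 8 rats (rats 3, 4, 9, 10, 75, 76 and 81) and that with sorafenib without any of 6 of the 8 (rats 16, 21, 22, 87, 93 and 94), with adjusted p up to 0.199 and 0.162. Of 189 values of 7 activators and cofactors 2 passed (1.06%), both in liver 24 h after temsirolimus: *Pcsk6*, a proprotein convertase, at 0.68 ± 0.13 (adjusted p = 0.000375) and *Fn1*, fibronectin, at 0.17 ± 0.05 (adjusted p = 0.0498). The *Fn1* call was lost without any of 13 of the 16 rats (rats 6, 11, 12, 18, 23, 24, 29, 30, 35, 36, 41, 47 and 48, adjusted p up to 0.147), while no rat's omission ended the *Pcsk6* call. Of 297 values of 11 matrix substrates 2 passed (0.673%). These were *Tfpi2*, a protease inhibitor of the matrix, which fell in marrow 24 h after sorafenib (-0.47 ± 0.12, adjusted p = 0.0131), and *Acan*, aggrecan, at 0.38 ± 0.13 in liver 24 h after sunitinib (adjusted p = 0.0496), which was 0.09 without rat 78. The *Tfpi2* call was lost without rat 17 or 96, and the *Acan* call also without rat 5, 6, 11 or 12. Versican and the other substrates did not pass with a drug alone. On top of the other agent 9 of the 297 substrate values passed, all lower (3.03%, against 1.34% of all values). The share there was 0.617% for the inhibitors and clearance genes and 2.12% for the activators and cofactors.

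Other metalloproteases passed in 4 of 405 values (0.988%). *Adam8*, a leukocyte sheddase, fell in heart 6 h after sunitinib (-0.47 ± 0.11, adjusted p = 0.0157), and *Adam15*, expressed in endothelium, fell there 6 h after sorafenib (-0.44 ± 0.12, adjusted p = 0.0226). In liver 24 h after sunitinib *Mmp14*, a membrane-bound collagenase, gave -0.80 ± 0.25 (adjusted p = 0.0425) and *Mmp11* 0.43 ± 0.14 (adjusted p = 0.0426), and both calls were lost without rat 78, at -0.57 and 0.05. They were also lost without rat 5, 6, 11 or 12, and that of *Mmp14* without rat 84. The *Adam8* call was lost without rat 3 or 81, and the *Adam15* call without rat 15, 22, 87 or 88. On top of the other agent 4 values of this list rose and 2 fell (1.48%, against 1.34% of all values).

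Genes that answer to the pathways of these drugs were counted in the same way. None of them passed in liver 24 h after sorafenib alone, where *Adamts1* fell. Among 14 genes induced by ERK signalling 13 of 378 values passed with a drug alone (3.44%, against 1.08% of all values), 9 lower and 4 higher. In heart 6 h after sorafenib the transcription factors *Egr1* and *Myc* and the ERK inhibitor *Spry4* fell by 1.87, 0.75 and 0.71 on the log2 scale (adjusted p = 3.44e-08, 3.19e-06 and 3.44e-08). Only the 3 genes with the smallest p were named there. The unnamed calls of this list with a drug alone lay in the same comparison and included a rise as well as a fall. *Spry4* fell by 0.34 at 1 h (adjusted p = 0.0377, 1.81% of all genes passing) and by 0.45 at 24 h (adjusted p = 0.00193). Sunitinib at 6 h lowered *Egr1* (-0.79 ± 0.23, adjusted p = 0.0459) and *Spry4* (-0.41 ± 0.09, adjusted p = 0.0101) in heart. It lowered *Egr1* in liver (-2.22 ± 0.48, adjusted p = 0.0266, 0.120% passing). In liver 24 h after temsirolimus *Egr1* rose by 1.65 ± 0.34 (adjusted p = 0.00127) and *Dusp6*, an ERK phosphatase, by 0.87 ± 0.23 (adjusted p = 0.0217). *Etv4* gave 0.30 ± 0.09 in liver 24 h after sunitinib (adjusted p = 0.0418), and 0.16 without rat 78. The *Etv4* call was also lost without rat 5, 6, 11 or 12. The sunitinib call of *Egr1* in heart was lost without any of 5 of the 8 rats (rats 3, 9, 10, 75 and 81), that in liver without rat 9, 76, 81 or 82, and that of *Spry4* without rat 81. The *Spry4* call at 1 h was lost without rat 19, 20, 85 or 91, and the *Dusp6* call without rat 12, 23, 30 or 48. No rat's omission ended the calls of *Egr1*, *Myc* and *Spry4* in heart 6 h after sorafenib, that of *Spry4* at 24 h, or that of *Egr1* in liver after temsirolimus. On top of the other agent 8 values of the ERK list rose and 6 fell (3.70%, against 1.34% of all values).

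Among 10 VEGF-responsive endothelial genes 5 of 270 values passed (1.85%, against 1.08%). In heart 6 h after sorafenib the VEGF receptor *Kdr* fell by 0.90 (adjusted p = 5.05e-05) and the netrin receptor *Unc5b* by 0.91 (adjusted p = 0.000656) on the log2 scale, and *Unc5b* fell by 0.68 after sunitinib (adjusted p = 0.0277). The sunitinib call was lost without any of 5 of the 8 rats (rats 3, 10, 75, 76 and 81, adjusted p up to 0.129), and no rat's omission ended the other 4 calls of this list. In liver 6 h after sorafenib *Angpt2*, a ligand of the endothelial TIE2 receptor, rose by 1.28 ± 0.15 (adjusted p = 2.06e-08) and *Esm1*, an endothelial proteoglycan, by 2.11 ± 0.26 (adjusted p = 3.05e-08), where 0.225% of all genes passed and *Adamts1* gave -0.43 ± 0.15. On top of the other agent 8 values of the VEGF list rose and 4 fell (4.44%, against 1.34% of all values).

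The genes whose 24 group means followed each protease most closely were named for every tissue, by Pearson's r over these means, which share arrays, treatments and normalisation. In marrow *Adamts5* was followed by *Fam167b* (r = 0.886), *Gcsh* (0.868) and *Rhoj* (0.853), *Adamts1* by *Slc25a33* (0.806), *Cactin* (0.775) and *Adcy2* (0.753), *Adamts4* by *mrpl24* (0.729), *Mmp13* (0.721) and *Ran* (0.704), and *Adamts9* by *Ccdc80* (0.842), *Srpx* (0.828) and *Metrnl* (0.784). In heart *Adamts9* was followed by *Prnd* (r = 0.928), *E2f1* (0.888) and *Nr4a1* (0.857), *Adamts1* by *Fzd4* (0.789), *Rhob* (0.759) and *S1pr1* (0.747), *Adamts4* by *Tmem171* (0.919), *Npas2* (0.898) and *Miga2* (0.894), and *Adamts5* by *Zbtb4* (0.855), *Rbpj* (0.834) and *Ccdc9* (0.826). In liver *Adamts1* was followed by *Arhgef15* (r = 0.817), *Il1a* (0.812) and *Tfec* (0.796), *Adamts4* by *Itpk1* (0.848), *Hsd11b2* (0.846) and *Evpl* (0.840), *Adamts5* by *Ptprr* (0.808), *Car9* (0.798) and *Olig2* (0.793), and *Adamts9* by *Kif2c* (0.887), *Spag5* (0.870) and *Dlgap5* (0.865).

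Among the 4 proteases themselves, the group means in marrow went together most for *Adamts1* and *Adamts5* (r = 0.703, 24 group means), the neighbours on chromosome 11, and least for *Adamts5* and *Adamts9* (r = 0.0563). In heart *Adamts1* and *Adamts5* had r = 0.0892 and in liver r = 0.147. The highest value in heart was *Adamts1* with *Adamts9* (r = 0.469) and in liver *Adamts4* with *Adamts5* (r = 0.584).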

How the data were processed

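Total RNA from bone marrow, heart and liver of the same rats was hybridised to 1-colour Affymetrix rat genome arrays. The authors deposited log2 signals of 31099 probe sets made by robust multiarray averaging (RMA), whose version is not given in the sources used here. Of these, 20832 were annotated to a single symbol, for 14218 genes, and of several probe sets of a gene the brightest on average in the tissue was used. No column of the deposited table lacked a sample (0 columns).

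The log2 values were fitted as deposited with limma (version 3.58.1, R 4.3.3), 1 fit per tissue over all genes and 96 arrays, with a mean for each of 24 groups and a term for the array set within each time. The array set parts the 2 lower from the 2 higher rat numbers of a group. The study dosed its rats over 2 consecutive days, with 2 rats of a dose group on each. Which rats were dosed on which day is not given in the labels. The set may therefore stand for the dosing day as well as for the arrays, and these were not told apart. The number in the array names was the same within a set at a time for most arrays, and differed for 1 or 2 arrays of the second set at 1 h, 1 of the first at 6 h in marrow and liver, and 2 of the second at 24 h. In heart and liver all of these arrays, and in marrow those at 24 h, were of rats given TEM vehicle and sorafenib. The array number thus goes in part with sorafenib alone. P-values were adjusted by Benjamini-Hochberg over all genes of a comparison, with a threshold of 0.05. Errors beside a change are standard errors, and an overlap refers to single rats. The number of arrays, 4 rats per group, limits the precision.

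Rats were grouped by the labelled treatment, time and tissue, and the rat number in the label links the tissues of an animal. The differences between tissues were fitted within the rat. Residuals of the same rat had a median correlation of 0.130 between heart and liver, 0.0954 between marrow and heart and 0.105 between marrow and liver.

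The genes, gene lists and tests were chosen with earlier results of these data known, so no result here is independent support for them. Named besides the 4 proteases are, in each comparison of a drug alone, up to 3 genes of each list that passed, those with the smallest p, and for each protease and tissue the 3 genes with the highest correlation over group means. Marker lists are given by counts and by their mean signal. Of 160 listed symbols 141 were measured.

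The fit was tested on simulated data made from the mean and spread of each gene in the heart arrays (sorafenib alone, 6 h, 14218 genes). It recovered 83 of 100 genes changed by 0.5 and 100 of 100 changed by 1 on the log2 scale, with 11 false calls. The simulated noise was independent between genes and held no outlying arrays or liver signal. These counts therefore check the fit and do not give its power in the real data. Alternatives were a filter on low signal (mean of at least 6), quantile normalisation anew, no array-set terms, each array set alone, other probe sets, hepatocyte level or a mark in the labels of 8 marrow arrays as covariate, the compared groups alone, no rat block, and leaving out the arrays that stood apart or each rat in turn. Sequences came from RefSeq tables on GRCr8.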

Additional observations from a re-analysis of the deposited data

Results flagged for a closer look

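In 20 of 288 groups of 4 rats (6.94%), formed by gene, tissue, treatment and time, 1 rat lay far from the other three, 9 above them and 11 below. Chance gives such a rat in about 1 in 20 groups. In heart these were *Adamts1* at 7.78 in rat 46 (temsirolimus with F68, 6 h) and 8.38 in rat 76 (TEM vehicle with sunitinib, 6 h), *Adamts4* at 6.32 in rat 88 (TEM vehicle with sorafenib, 6 h), *Adamts5* at 8.61 in rat 90 (TEM vehicle with sorafenib, 24 h) and 8.82 in rat 6 (TEM vehicle with water, 24 h), and *Adamts9* at 7.69 in rat 90. In liver *Adamts1* was 8.54 in rat 10 (TEM vehicle with water, 6 h), 7.46 in rat 66 (temsirolimus with sorafenib, 24 h) and 7.46 in rat 78 (TEM vehicle with sunitinib, 24 h).

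*Adamts4* in liver was 7.13 in rat 16 (TEM vehicle with F68, 6 h), 7.62 in rat 41 (temsirolimus with F68, 24 h) and 8.21 in rat 78. *Adamts5* in liver was 5.73 in rat 96 (TEM vehicle with sorafenib, 24 h) and 6.51 in rat 78. *Adamts9* in liver was 8.10 in rat 61 (temsirolimus with sorafenib, 1 h) and 6.52 in rat 76. Rat 78 thus stood apart in 3 genes of its liver and rat 76 in the *Adamts1* signal of its heart and the *Adamts9* signal of its liver. In marrow the values were 5.86 for *Adamts1* in rat 13 (TEM vehicle with F68, 1 h), 7.29 for *Adamts5* in rat 55 (temsirolimus with sunitinib, 1 h), 6.66 for *Adamts5* in rat 2 (TEM vehicle with water, 1 h) and 7.53 for *Adamts9* in rat 24 (TEM vehicle with F68, 24 h).

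An effect differed between times for *Adamts5* in marrow (F = 10.1) and *Adamts9* in heart (F = 7.58) after sorafenib. An effect differed between marrow and liver for *Adamts5* 6 h after sorafenib, by -1.08, and for *Adamts1* 6 h after temsirolimus, by -0.77. The rats on which these rest are named with the results.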

How the results depend on the processing

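Of 173 values of the 4 proteases under another setting, 115 kept their call, 54 lost it and 4 changed sign, and when 1 rat was left out 132 of 208 values kept it and 76 lost it. The changes of sign all came from the other *Adamts9* probe set in heart: 0.0169 for sorafenib alone at 6 h, and after temsirolimus 0.0477 for sunitinib at 6 h and 0.0748 and 0.0998 for sorafenib at 6 and 24 h. For named genes of the other lists, 181 of 264 values kept their call without 1 rat and 83 lost it. The 8 calls of drugs alone became 3 within the first array set, 2 within the second, 5 with the other *Adamts9* probe set and 3 in fits of the compared groups alone. The 7 calls on top of the other agent became 1, 2 and 4 in the first 3 of these settings. In the first array set all 7 were lost, and the 1 counted was new (*Adamts9* in marrow, temsirolimus, 24 h). In the second set *Adamts9* in marrow 6 h after sorafenib was new, and *Adamts1* in liver 6 h after sorafenib was kept. Without array-set terms *Adamts4* and *Adamts9* in heart 6 h after sunitinib alone lost their calls. So did *Adamts1* and *Adamts5* in marrow 24 h after sorafenib on top of temsirolimus. The count for time in vehicle rats, 0, became 2 with the filter on low signal, 2 with new quantile normalisation, 1 without 2 arrays, 2 without 6 arrays and 1 with the hepatocyte level as covariate. The 2 calls between times became 1 with new quantile normalisation, 1 without array-set terms, 0 in either array set and 1 with the other *Adamts9* probe set. Sorafenib against sunitinib went from 0 to 1 without 6 arrays. The 2 calls between tissues became 1 with the filter, 1 without array-set terms, 4 in the first array set, 1 in the second and 5 with the other *Adamts5* probe set. The 4 in the first array set were all new, each 24 h after sunitinib, and the 2 earlier calls were lost there. Without 1 rat the counts ranged from 6 to 10 for drugs alone, 5 to 8 on top of the other agent, 0 to 1 for the alteration by temsirolimus, 0 to 0 for the oral vehicle, 0 to 2 for time, 0 to 2 between times, 0 to 1 for sorafenib against sunitinib and 1 to 4 between tissues. Smaller fits hold fewer arrays, and the cause of the other moves was not tested.

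The paired fit used the rat as the block. With no block the tissue differences kept their 2 calls, at -1.08 (limma adjusted p = 0.00108) for *Adamts5* and -0.77 (adjusted p = 0.0376) for *Adamts1*. Drugs were compared between different rats, so no pairing applies there. Signal limits the low genes: *Adamts5* in liver, *Adamts4* in heart and marrow and *Adamts1* in marrow had means between 5.22 and 6.34.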

Other observations

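The other 8 ADAMTS proteases with a probe set of their own also differed in signal between tissues, given here as a description. The mean signal of 7 of them was highest in heart: *Adamts6* (5.52), *Adamts7* (9.14), *Adamts8* (6.14), *Adamts10* (8.12), *Adamts12* (9.67), *Adamts15* (7.97) and *Adamts19* (8.79). *Adamts16* was highest in liver (5.47). *Adamts19* had means of 8.79 in heart, 5.54 in liver and 4.01 in marrow, and *Adamts12* had 9.67, 7.62 and 5.20. All 8 had their lowest mean in marrow.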
